A study of Mus musculus with 15 samples.

Results

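The kidneys of mice given carbon tetrachloride (CCl4) and then ethanol (EtOH) were compared with the kidneys of mice given olive oil, the vehicle, in 6 of the 14 RNA-seq libraries of the series that have a column of counts. The labels put 3 libraries in the CCl4+EtOH group and 3 in the olive oil group, and every library is 1 male C57BL/6 mouse. The CCl4+EtOH mice received CCl4 for 6 weeks and ethanol for 4 weeks. Their titles repeat CCl4 beside ethanol, so whether CCl4 went on during the ethanol weeks is not settled by the labels. In the EtOH group (4 libraries) 6 weeks of olive oil were followed by 4 weeks of ethanol. In the CCl4 group (4 libraries) the mice received CCl4 for 6 weeks, and 2 of them another 4 weeks of a reduced dose. The olive oil mice received the vehicle for 6 weeks, without the 4 further weeks. This difference in schedule, any difference in age that goes with it, and the treatment cannot be told apart in CCl4+EtOH against olive oil. The EtOH mice share the full schedule of weeks with the CCl4+EtOH mice, and both comparisons with the single treatments are given at the end. The study's title describes a model of acute kidney injury with alcoholic liver fibrosis.

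Most of the kidney cortex is proximal tubule, an epithelium that reabsorbs filtered solutes through a brush border, takes up organic acids and drugs from blood, and burns fatty acids in mitochondria and peroxisomes. Injured tubule cells are known to lose these functions, to switch on proteins such as Havcr1 (kidney injury molecule 1) and Spp1 (osteopontin), to re-enter the cell cycle, and to signal to macrophages and fibroblasts. In male mice many proximal tubule transcripts also depend on androgen. CCl4 and ethanol are both oxidised by the P450 enzyme Cyp2e1, best known from liver.

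Total counts were 22.4, 21.0 and 21.7 M in the CCl4+EtOH libraries and 17.4, 23.6 and 19.9 M in the olive oil libraries, within the 16.4 to 23.6 M of all libraries. Levels are in CPM, the counts of a gene relative to the total of its library after TMM scaling, and values of a group are given in the order of replicates 1, 2 and 3. The labelled tissue was checked against its markers. Of 14 markers of all kidney segments 4 fell and 10 did not pass, with a median log2 change of -0.45 in CCl4+EtOH against olive oil kidneys. Their mean log2 CPM was 8.67, 8.78 and 9.42 in CCl4+EtOH kidneys and 9.58, 9.69 and 9.62 in olive oil kidneys, and without CCl4+EtOH replicate 3, the highest treated library, 8 fell and 1 rose. One of those that did not pass, Cdh16, the kidney-specific cadherin, had 1334, 1362 and 1499 CPM in CCl4+EtOH kidneys and 1393, 1476 and 1338 CPM in olive oil kidneys, and the podocyte protein Nphs1 and the thick ascending limb protein Umod were present in every library. Adrenal gland markers were near 0 in both groups, where Cyp11b1 had 0, 0 and 0.0432 CPM in CCl4+EtOH kidneys and 0, 0 and 0 CPM in olive oil kidneys. EtOH replicates 1 to 3 did hold adrenal transcripts. CCl4+EtOH replicate 3 stood apart from replicates 1 and 2. Genes that rose over 2-fold in the comparison below held 10.1%, 9.21% and 3.25% of the counts in CCl4+EtOH kidneys, against 1.64%, 1.43% and 1.26% in olive oil kidneys. A fit that gives less weight to libraries whose counts depart from their group (limma-voom) gave replicate 3 a weight of 0.181. That weight is drawn from the counts and is no measure of RNA quality. Of 9 red cell markers 1 rose and 1 fell, and averaged over the list they stood at 4.96, 4.37 and 7.18 log2 CPM in CCl4+EtOH kidneys and 5.80, 5.65 and 5.75 log2 CPM in olive oil kidneys, highest in replicate 3. This library is described further on with its own values held out of the gene choice, and list counts without it are given where it moves them by over 1.5 times.

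In CCl4+EtOH kidneys 3036 of 16105 genes tested rose and 2670 fell against olive oil kidneys, by edgeR's quasi-likelihood test with an adjusted p under 0.05. These are 18.9% and 16.6% of the genes tested, 35.4% together. Over 2-fold, 1308 genes rose and 637 fell, and over 4-fold 396 rose and 128 fell. The median log2 change was 0.87 among genes that rose, -0.62 among those that fell and 0.02 over all genes tested. Rises and falls sat at different levels. Among the 2421 genes whose higher group mean reached 100 CPM or more, 351 rose and 963 fell. Between 1 and 10 CPM, 917 of 4081 rose and 280 fell. Of the called genes 2704 higher and 2447 lower ones had no overlap between the libraries of both groups, where 43.7% of all genes tested had none. Without CCl4+EtOH replicate 3 the test called 3787 higher and 3630 lower genes, and without replicate 1 or replicate 2 it called 3904 and 3914 genes in all. A fit of only these 6 libraries called 1807 higher and 1469 lower genes, and the fit used here takes its spread from all 14 libraries.

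**Figure D1:**
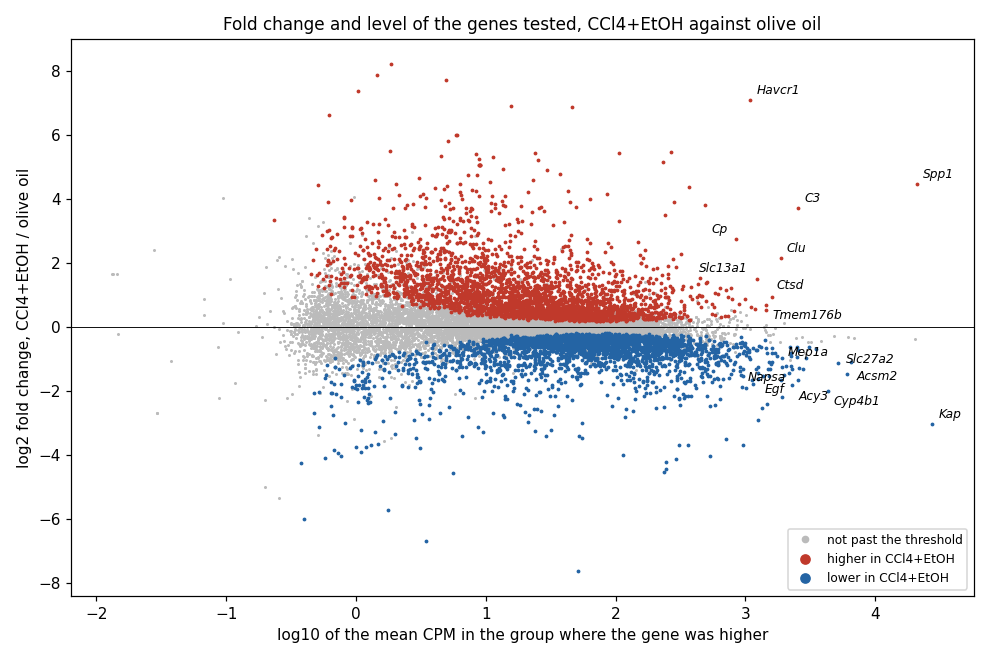
Each point is 1 of 16105 genes tested, placed by the log10 of its mean CPM in the group where it was higher (horizontal axis) and by its log2 fold change, CCl4+EtOH over olive oil (vertical axis). Red genes rose (3036) and blue genes fell (2670) with an adjusted p under 0.05 in edgeR, grey genes did not pass, and the named genes are those with the largest differences in mean CPM.

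Of the transcripts with the largest differences in mean CPM, Spp1 and Kap were also the most counted genes of single libraries. Spp1, a secreted matrix and cytokine-like protein of injured tubules, took 3.83%, 2.94% and 0.463% of all counts in CCl4+EtOH kidneys, against 0.112%, 0.101% and 0.0604% in olive oil kidneys. It was the most counted gene of CCl4+EtOH replicates 1 and 2. Kap, an androgen-dependent protein of the proximal tubule, took 0.548%, 0.233% and 0.349% in CCl4+EtOH kidneys, against 2.57%, 2.46% and 2.88% in olive oil kidneys, where it was the most counted gene of each library. In CCl4+EtOH replicate 3 the most counted gene was Gpx3, a secreted glutathione peroxidase, with 2.55%. The groups did not overlap for Spp1 or Kap. The other transcripts with the largest rises in CPM were C3, the central complement protein, Clu (clusterin, a secreted chaperone), Havcr1, the sulfate transporter Slc13a1, the lysosomal protease Ctsd, the copper-carrying ferroxidase Cp, and Tmem176b, which did not pass without CCl4+EtOH replicate 1 (adjusted p = 0.0747). Tmem176b and, of the lower genes below, Egf did not pass in a fit of only these 6 libraries (adjusted p = 0.104 and 0.1). The other largest falls were in Acsm2 and Slc27a2, which activate fatty acids, the P450 Cyp4b1, Egf, the protease Napsa, the deacylase Acy3 and the brush border protease Mep1a. C3 had 2637, 3635 and 1402 CPM in CCl4+EtOH kidneys, against 255, 151 and 176 CPM in olive oil kidneys, a log2 change of 3.72 ± 0.42 (SE, adjusted p = 0.000115). Slc13a1 had 1562, 1291 and 845 CPM in CCl4+EtOH kidneys and 479, 464 and 364 CPM in olive oil kidneys, a log2 change of 1.4999 ± 0.22 (adjusted p = 0.000394). Slc13a1 sits in the brush border list, most of whose called members fell. The whole distribution was flatter in the CCl4+EtOH kidneys. There 1144, 1225 and 1023 genes together held 50% of the counts, against 853, 809 and 761 genes in olive oil kidneys. The 20 most counted genes held 10.7%, 9.76% and 9.2% in CCl4+EtOH kidneys and 11.2%, 11.7% and 12.1% in olive oil kidneys (exact permutation test, two-sided p = 0.1, the smallest that 3 against 3 libraries allow).

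The 12 higher and the 12 lower genes with the smallest p follow. Gc, the plasma carrier of vitamin D that tubules also take up, had 579.8, 587 and 293 CPM in CCl4+EtOH kidneys, against 31.8, 40.1 and 31.7 CPM in olive oil kidneys, a log2 change of 3.82 ± 0.31 (SE, adjusted p = 1.67e-05). Azgp1, a secreted lipid-mobilising glycoprotein, had 5.999, 7.06 and 8.59 CPM in CCl4+EtOH kidneys, against 89.8, 99.2 and 152 CPM in olive oil kidneys, a change of -3.98 ± 0.21 (adjusted p = 3.99e-07). For Azgp1 replicate 3 was the highest treated library and still far below every olive oil library. Inmt, a methyltransferase of indole amines, had 62.7, 61.3 and 63.4 CPM in CCl4+EtOH kidneys and 541, 759 and 818 CPM in olive oil kidneys. Acox3, a peroxisomal oxidase of branched fatty acids, had 140.0, 149 and 146 CPM in CCl4+EtOH kidneys and 449, 442 and 519 CPM in olive oil kidneys. The spread among the 3 treated mice was small beside the change in both. Cbs and Csad, which act in the use of sulfur amino acids, the ketone body enzyme Bdh1, trehalase (Treh), Itih2, Akr1d1, Ugt3a1, Ido2 and Arhgef19 completed the 12 lower genes, with log2 changes between -3.003 for Akr1d1 and -1.58 for Csad among them.

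Beside Gc the 12 higher genes were of several kinds. Tap2, which feeds peptides to MHC class I, had 47.6, 47.5 and 45.0 CPM in CCl4+EtOH kidneys, against 26.9, 26.5 and 27.4 CPM in olive oil kidneys, a change of 0.79 ± 0.076 (SE, adjusted p = 2.9e-05). Its replicate 3 lay beside the other 2. Ubd, a ubiquitin-like protein induced by cytokines, had 18.04, 17.1 and 6.74 CPM in CCl4+EtOH kidneys and 1.47, 0.839 and 0.759 CPM in olive oil kidneys. Itgax, the integrin CD11c of dendritic cells and some macrophages, had 23.8, 29.1 and 17.8 CPM in CCl4+EtOH kidneys and 5.57, 5.79 and 7.10 CPM in olive oil kidneys. Serpinb6a, an inhibitor of proteases inside cells, had 113, 103 and 80.2 CPM in CCl4+EtOH kidneys and 36.02, 31.6 and 29.5 CPM in olive oil kidneys. Every treated library lay above every olive oil library in all of these. Hpgds (prostaglandin D synthase), Lgals3bp, Dock10, Lhfpl2, Vps13c, Myo9a and Pogk made up the rest, with log2 changes between 0.78 for Pogk and 2.39 for Lhfpl2.

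**Figure D2:**
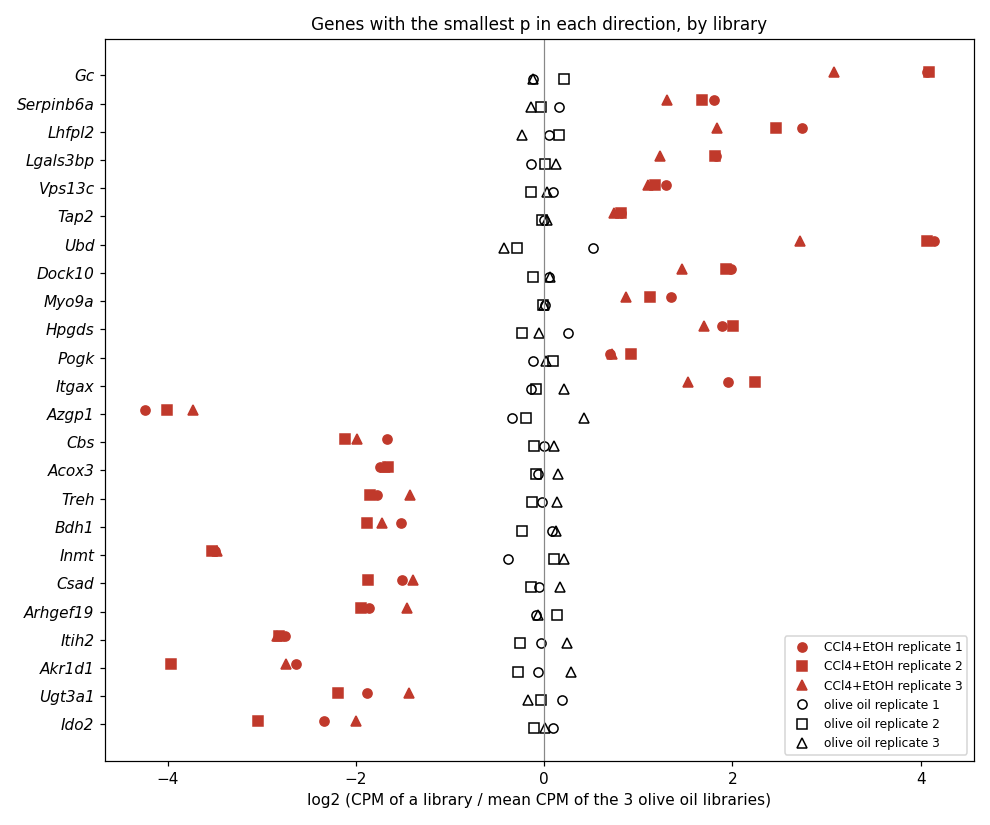
For the 12 higher and 12 lower genes with the smallest p, each symbol is 1 library, placed by the log2 of its CPM over the mean CPM of the 3 olive oil libraries. Filled red symbols (CCl4+EtOH) lie to the right of 0 for the upper 12 genes and to the left for the lower 12, and triangles (replicate 3) are the filled symbols nearest to 0 for Gc, Azgp1 and Inmt and lie between the other filled symbols for Cbs.

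The promoters of 4 of these genes, Gc and Serpinb6a that rose and Treh and Arhgef19 that fell, are shown because they hold a motif of a factor known from tubule identity, interferon signalling or stress. Sequences are from RefSeq's GRCm38.p6 build, from 250 bases before to 50 bases after the gene's start, 5′ to 3′ on the gene's strand, while the counts were made on mm9. Capitals mark the motif. Gc lies at chr5:89457849-89458148 on the minus strand and holds an HNF1 motif whose first base is at -52 from the start. Serpinb6a lies at chr13:34002745-34003044 on the minus strand, and its interferon element reads on the opposite strand, at -84. Treh lies at chr9:44672983-44673282 on the plus strand, with an HNF4 motif read on the opposite strand at -71. Arhgef19 lies at chr4:141244838-141245137 on the plus strand and holds an AP-1 motif, read on both strands, at -47. A match of letters is not a site of binding.
Gc: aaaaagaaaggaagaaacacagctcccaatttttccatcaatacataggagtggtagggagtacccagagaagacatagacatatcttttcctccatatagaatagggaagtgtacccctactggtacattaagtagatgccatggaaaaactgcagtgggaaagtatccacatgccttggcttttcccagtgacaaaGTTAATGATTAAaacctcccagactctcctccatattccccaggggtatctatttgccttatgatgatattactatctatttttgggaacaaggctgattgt
Serpinb6a: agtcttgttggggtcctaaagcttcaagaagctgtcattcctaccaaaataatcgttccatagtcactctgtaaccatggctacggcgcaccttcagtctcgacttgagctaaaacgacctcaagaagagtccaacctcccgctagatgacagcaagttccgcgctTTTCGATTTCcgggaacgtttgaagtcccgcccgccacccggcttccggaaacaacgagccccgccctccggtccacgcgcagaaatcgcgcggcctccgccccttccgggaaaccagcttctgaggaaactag
Treh: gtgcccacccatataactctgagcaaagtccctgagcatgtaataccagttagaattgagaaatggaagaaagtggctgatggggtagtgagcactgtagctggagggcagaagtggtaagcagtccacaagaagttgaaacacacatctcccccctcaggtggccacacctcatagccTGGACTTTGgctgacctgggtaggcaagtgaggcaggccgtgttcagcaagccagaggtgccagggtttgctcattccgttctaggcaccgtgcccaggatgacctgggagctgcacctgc
Arhgef19: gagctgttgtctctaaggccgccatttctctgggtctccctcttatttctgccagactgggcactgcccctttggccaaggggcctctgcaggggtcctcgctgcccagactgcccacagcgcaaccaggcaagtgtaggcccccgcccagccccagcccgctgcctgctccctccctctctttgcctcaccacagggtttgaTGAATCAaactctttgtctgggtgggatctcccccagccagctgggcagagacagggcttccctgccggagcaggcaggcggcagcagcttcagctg

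Metabolic genes of the tubule fell as groups in CCl4+EtOH kidneys. The lists were written with earlier results of these data known, so their counts describe the groups, and each is set against 18.9% of all genes higher and 16.6% lower. Where a list is said to have none in a direction, none of its members passed there in DESeq2 or limma-voom or had an unadjusted p under 0.05 in edgeR, except where given. In amino acid catabolism 30 of 37 genes tested fell and none rose, with a median log2 change of -1.08. The branched-chain enzyme Ivd had 156, 169 and 229 CPM in CCl4+EtOH kidneys, against 477, 519.6 and 595 CPM in olive oil kidneys, a change of -1.52 ± 0.14 (SE, adjusted p = 2.34e-05). Dmgdh, which oxidises dimethylglycine, had 39.7, 37.4 and 73.7 CPM in CCl4+EtOH kidneys and 198, 189.5 and 227 CPM in olive oil kidneys, a change of -2.03 ± 0.20 (adjusted p = 4.52e-05). Replicate 3 was the highest treated library for both and still below each olive oil library. Hibch and Acad8 of valine breakdown fell, with log2 changes of -1.04 and -0.76. In serine and methyl-group metabolism 10 of 20 fell and 3 rose, and the homocysteine enzymes Cbs, Bhmt2 and Ahcy fell, with log2 changes of -1.91, -2.05 and -1.25. As these are whole-kidney samples, fewer cells of a type and less RNA per cell cannot be told apart.

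Mitochondrial and peroxisomal lists had smaller median changes than amino acid catabolism. In the respiratory chain list 39 of 40 genes fell, with a median of -0.56 and no gene beyond 2-fold. Ndufa10, a subunit of complex I, had 124, 135 and 199.99 CPM in CCl4+EtOH kidneys and 273.8, 270.2 and 285 CPM in olive oil kidneys, a change of -0.85 ± 0.14 (adjusted p = 0.000637). In the citric acid cycle list 18 of 21 fell, median -0.58, among them Pdha1 and Dlat of pyruvate dehydrogenase at -0.68 and -0.71. Of 31 peroxisomal genes 22 fell, and of 30 genes of fatty acid oxidation 19 fell, with medians of -0.58 and -0.59, and none rose. Acadm, the medium-chain acyl-CoA dehydrogenase, had 283, 245 and 466 CPM in CCl4+EtOH kidneys and 1025, 893 and 935 CPM in olive oil kidneys, a change of -1.52 ± 0.20 (adjusted p = 0.000213). The 2 groups did not overlap, and replicate 3 was the highest treated library. In a fit of only these 6 libraries 15 of the respiratory chain genes, 4 of the citric acid cycle genes and 11 of the fatty acid oxidation genes fell, while without CCl4+EtOH replicate 3 in the fit of all groups 40, 19 and 26 did.

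Lipid, sterol and drug enzymes also leaned to lower values. In cholesterol synthesis 12 of 23 genes fell and none rose, and Idi1, which makes the isoprene unit, had 20.2, 18.3 and 29.2 CPM in CCl4+EtOH kidneys and 100.6, 83.5 and 129.9 CPM in olive oil kidneys. In lipid synthesis and storage 8 of 26 fell and 1 rose, and 3 fell without CCl4+EtOH replicate 1 or 2 and 4 in a fit of only these 6 libraries. The higher gene was Plin2, which coats lipid droplets, with 197, 149.5 and 126 CPM in CCl4+EtOH kidneys and 92.4, 91.5 and 104 CPM in olive oil kidneys (adjusted p = 0.00314). In the P450 families 1 to 4, 13 of 28 fell and 2 rose. Cyp2e1 had 382, 569 and 299 CPM in CCl4+EtOH kidneys, against 1383, 1639 and 2677 CPM in olive oil kidneys, a change of -2.19 ± 0.27 (SE, adjusted p = 0.000139). It was lower in each of the 3 treated mice than in any olive oil mouse. Of 23 enzymes of ethanol and aldehyde metabolism 12 fell and 4 rose. The fatty aldehyde dehydrogenase Aldh3a2 fell by 0.97 on the log2 scale, and the mitochondrial aldehyde dehydrogenase Aldh1b1 rose by 1.54. Adh1, the classical alcohol dehydrogenase, had 484, 313 and 202 CPM in CCl4+EtOH kidneys and 468, 418 and 844 CPM in olive oil kidneys, and did not pass (adjusted p = 0.0767).

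Sugar metabolism moved less evenly. Of 11 gluconeogenic genes 4 fell and 2 rose, and Pck1, the rate-limiting enzyme, had 1044, 1726 and 2202 CPM in CCl4+EtOH kidneys and 1652, 2487 and 4515 CPM in olive oil kidneys, overlapping values that did not pass (adjusted p = 0.143). Khk, the fructokinase, fell by 0.91 on the log2 scale. In glycolysis 4 of 21 rose and 2 fell, and without CCl4+EtOH replicate 3 the lead turned to 5 higher and 7 lower. Hk2, the inducible hexokinase, had 21.9, 21.4 and 9.89 CPM in CCl4+EtOH kidneys and 3.81, 1.28 and 1.57 CPM in olive oil kidneys, a change of 3.02 ± 0.73 (adjusted p = 0.00722).

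Among transporters of the proximal tubule, most organic ion transporters were lower. Of 31 tested 21 fell and 2 rose, with a median of -1.13. Slc22a7, an organic anion transporter, had 18.8, 5.004 and 15.6 CPM in CCl4+EtOH kidneys, against 322, 210.0 and 197 CPM in olive oil kidneys, a change of -4.21 ± 0.46 (SE, adjusted p = 0.0001). Slc22a6, the main uptake carrier for organic acids, had 350.4, 317 and 935 CPM in CCl4+EtOH kidneys and 993, 1312 and 1446 CPM in olive oil kidneys (adjusted p = 0.0112, and 0.0515 without CCl4+EtOH replicate 1). It did not pass in a fit of only these 6 libraries (adjusted p = 0.0843). For Slc22a6 CCl4+EtOH replicate 3 lay just below the lowest olive oil library, and for Slc22a7 all treated libraries were far lower. Slc22a26 and Slc22a19 fell, with log2 changes of -3.38 and -2.25, although close relatives in this family could share reads. In the brush border and protein uptake list 12 of 30 fell and 4 rose. The proteases Mep1a and Mep1b fell, with log2 changes of -1.27 and -2.43. The endocytic receptors Lrp2 (megalin) and Cubn overlapped between the groups, and Lrp2 had 1784, 1289 and 3916 CPM in CCl4+EtOH kidneys and 3082, 3161 and 3298 CPM in olive oil kidneys. The number of brush border genes that fell was 7 without CCl4+EtOH replicate 2, 20 without replicate 3 and 7 in a fit of only these 6 libraries. Among 30 amino acid transporters 13 fell and 7 rose, and without CCl4+EtOH replicate 1 it was 8 that fell, and 7 in a fit of only these 6 libraries. Slc7a13, an acidic amino acid transporter of the straight proximal tubule, had 191, 55.1 and 254 CPM in CCl4+EtOH kidneys and 1151, 1048 and 1519.7 CPM in olive oil kidneys.

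Genes of later segments fell in part. In the thick ascending limb and distal tubule list 11 of 20 fell and none rose, and 17 fell without CCl4+EtOH replicate 3 and 7 in a fit of only these 6 libraries. Slc12a1, the sodium, potassium and chloride cotransporter, had 774, 920.4 and 1204 CPM in CCl4+EtOH kidneys and 1933, 1518 and 1627 CPM in olive oil kidneys, a change of -0.81 ± 0.21 (adjusted p = 0.0083). Wnk4, a kinase that sets distal salt transport, fell by 0.82 on the log2 scale. Umod had 3521, 3855 and 4637 CPM in CCl4+EtOH kidneys and 5548, 5015 and 3989 CPM in olive oil kidneys, overlapping values. For intercalated cells and acid-base transport the count rested on single libraries, with 6 of 23 lower in the main test, 0 without CCl4+EtOH replicate 1, 1 without replicate 2, 18 without replicate 3 2 without olive oil replicate 2 or 3 and 0 in a fit of only these 6 libraries. For principal cells 5 of 20 fell and 2 rose, and 0, 1, 1 and 3 fell without CCl4+EtOH replicate 1, CCl4+EtOH replicate 2, olive oil replicate 1 and olive oil replicate 2. Of 22 genes of calcium, phosphate and vitamin D handling 5 rose and 5 fell, and 5 rose and 9 fell without CCl4+EtOH replicate 3. Without CCl4+EtOH replicate 1, CCl4+EtOH replicate 2, olive oil replicate 2 and olive oil replicate 3, 3, 2, 3 and 2 rose. In a fit of only these 6 libraries 3 rose and 1 fell. The hormone Stc2 and the calcium pump Atp2b1 rose by 2.18 and 0.58, and the calcium-binding S100g and the parathyroid hormone receptor Pth1r fell, with log2 changes of -1.91 and -0.90. Pth1r did not pass in a fit of only these 6 libraries (adjusted p = 0.0656). In podocytes 6 of 22 rose and 2 fell, and in endothelium 1 of 24 rose and 3 fell, against 1 that fell without CCl4+EtOH replicate 1 and 7 without replicate 3. Nes, a filament protein of podocytes and of dividing progenitors, rose by 1.37, while Nphs1 had 27.7, 38.8 and 49.2 CPM in CCl4+EtOH kidneys and 34.7, 43.7 and 41.2 CPM in olive oil kidneys.

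Androgen-dependent kidney transcripts were lower in all 3 treated mice. Of 15 genes tested 12 fell and 1 rose, with a median of -1.92. Kap had 4873, 1969 and 3269.7 CPM in CCl4+EtOH kidneys, against 26178, 25620.0 and 31039.6 CPM in olive oil kidneys, a change of -3.03 ± 0.31 (SE, adjusted p = 4.53e-05). Cyp4a12a, a fatty acid hydroxylase of male kidney, had 15.2, 7.95 and 7.38 CPM in CCl4+EtOH kidneys and 174, 229 and 302 CPM in olive oil kidneys, a change of -4.52 ± 0.41 (adjusted p = 2.86e-05), and may share reads with its near copy Cyp4a12b. Cyp7b1, an oxysterol hydroxylase, had 29.6, 12.5 and 8.98 CPM in CCl4+EtOH kidneys and 396, 203 and 282 CPM in olive oil kidneys. In Cyp4a12a and Cyp7b1 replicate 3 was the lowest library. Timd2 was the member that rose, with 356, 187 and 116 CPM in CCl4+EtOH kidneys and 106, 116 and 113 CPM in olive oil kidneys, and it did not pass without CCl4+EtOH replicate 1 or any 1 olive oil library (adjusted p of 0.112, and 0.0535 to 0.062). In a fit of only these 6 libraries its adjusted p was 0.101. Of 6 transcripts known to be higher in female kidney, Abcc3, Slc7a12 and Prlr rose and Slc22a7 and Cyp2a4 fell, and 1 rose without CCl4+EtOH replicate 3 or without olive oil replicate 2 or 3. The prolactin receptor Prlr had 19.1, 35.4 and 149 CPM in CCl4+EtOH kidneys and 21.5, 11.9 and 24.7 CPM in olive oil kidneys, with replicate 3 by far the highest. It did not pass without replicate 3 (adjusted p = 0.447) or without any 1 olive oil library (0.0777 to 0.144). In a fit of only these 6 libraries Prlr did not pass either (adjusted p = 0.121). Slc7a12 did not pass without CCl4+EtOH replicate 1 or 3 or olive oil replicate 2 or 3 (adjusted p = 0.059, 0.118, 0.111 and 0.104).

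Injury genes of the tubule rose in 21 of 22 members tested, with a median of 2.71. Havcr1 had 2000.4, 1151 and 108 CPM in CCl4+EtOH kidneys, against 11.9, 6.76 and 5.31 CPM in olive oil kidneys, a log2 change of 7.10 ± 0.93 (SE, adjusted p = 0.000305). Vcam1, an adhesion molecule for leukocytes, had 465, 518 and 119.9 CPM in CCl4+EtOH kidneys and 18.1, 15.1 and 19.997 CPM in olive oil kidneys, a change of 4.38 ± 0.49 (adjusted p = 0.000133). Cdh6, a cadherin of the developing nephron, had 22.9, 32.4 and 11.3 CPM in CCl4+EtOH kidneys and 2.35, 2.69 and 1.95 CPM in olive oil kidneys, a change of 3.25 ± 0.34 (adjusted p = 5.15e-05). In each of these replicate 3 lay far below replicates 1 and 2 and above all olive oil libraries. Lcn2, an iron-siderophore binding protein released by injured tubules, had 405, 349 and 45.0 CPM in CCl4+EtOH kidneys and 10.6, 3.67 and 3.85 CPM in olive oil kidneys. Among 21 keratins and other filaments 10 rose and 2 fell (5 rose in a fit of only these 6 libraries), and Krt20, a keratin of surface epithelia, had 73.2, 56.4 and 8.76 CPM in CCl4+EtOH kidneys and 0.704, 0.353 and 0.108 CPM in olive oil kidneys. Vim (vimentin) rose by 0.89 and the plakin Evpl fell by 0.91 on the log2 scale. Of 24 claudin and junction genes 9 rose and 1 fell, among them Cdh6, Cdh3 and Cldn1 at 3.25, 2.25 and 2.27. Of 22 S100 proteins and annexins 12 rose and 3 fell (7 rose in a fit of only these 6 libraries), and Anxa3 rose by 2.50 while Anxa13 and S100g fell, with log2 changes of -1.24 and -1.91.

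Transcription factors were counted in lists by their known role. Of 20 nephron transcription factors 7 fell and none rose. Hnf4a, the proximal tubule regulator, had 545, 546 and 917 CPM in CCl4+EtOH kidneys and 936, 994 and 982 CPM in olive oil kidneys, a change of -0.54 ± 0.17 (adjusted p = 0.0255), and its replicate 3 lay just below the lowest olive oil library. Without CCl4+EtOH replicate 1, CCl4+EtOH replicate 2, olive oil replicate 2 or olive oil replicate 3 Hnf4a did not pass (adjusted p = 0.118, 0.114, 0.0693 and 0.0618). Nor did Hnf4a pass in a fit of only these 6 libraries (adjusted p = 0.14). Esrrb, Emx1, Irx1 and Prox1 fell, with log2 changes of -1.14, -0.93, -0.89 and -0.87, where Irx1 did not pass without CCl4+EtOH replicate 1, CCl4+EtOH replicate 2 or olive oil replicate 1 (adjusted p = 0.0759, 0.0815 and 0.101), nor Prox1 without CCl4+EtOH replicate 1 or olive oil replicate 1 (0.0607 and 0.0619). The number that fell was 2, 3 and 14 without CCl4+EtOH replicates 1, 2 and 3, and 3, 4 and 4 without olive oil replicates 1, 2 and 3, and 4 in a fit of only these 6 libraries. Of 20 factors of kidney development 7 rose and 1 fell. Sox9, a factor of repairing tubules, had 26.9, 34.1 and 7.81 CPM in CCl4+EtOH kidneys, against 1.35, 0.53 and 0.975 CPM in olive oil kidneys, a change of 4.62 ± 0.51 (SE, adjusted p = 9.14e-05). Sox11 and Runx1 had 10.7, 8.96 and 2.12 CPM and 31.5, 30.1 and 6.69 CPM in CCl4+EtOH kidneys, against 0.469, 0.133 and 0.217 CPM and 1.94, 1.33 and 2.44 CPM in olive oil kidneys. Among immediate early genes 18 of 25 rose and none fell, median 1.61, with Atf3, Egr2 and Klf6 at 3.20, 3.71 and 2.18.

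**Figure D3:**
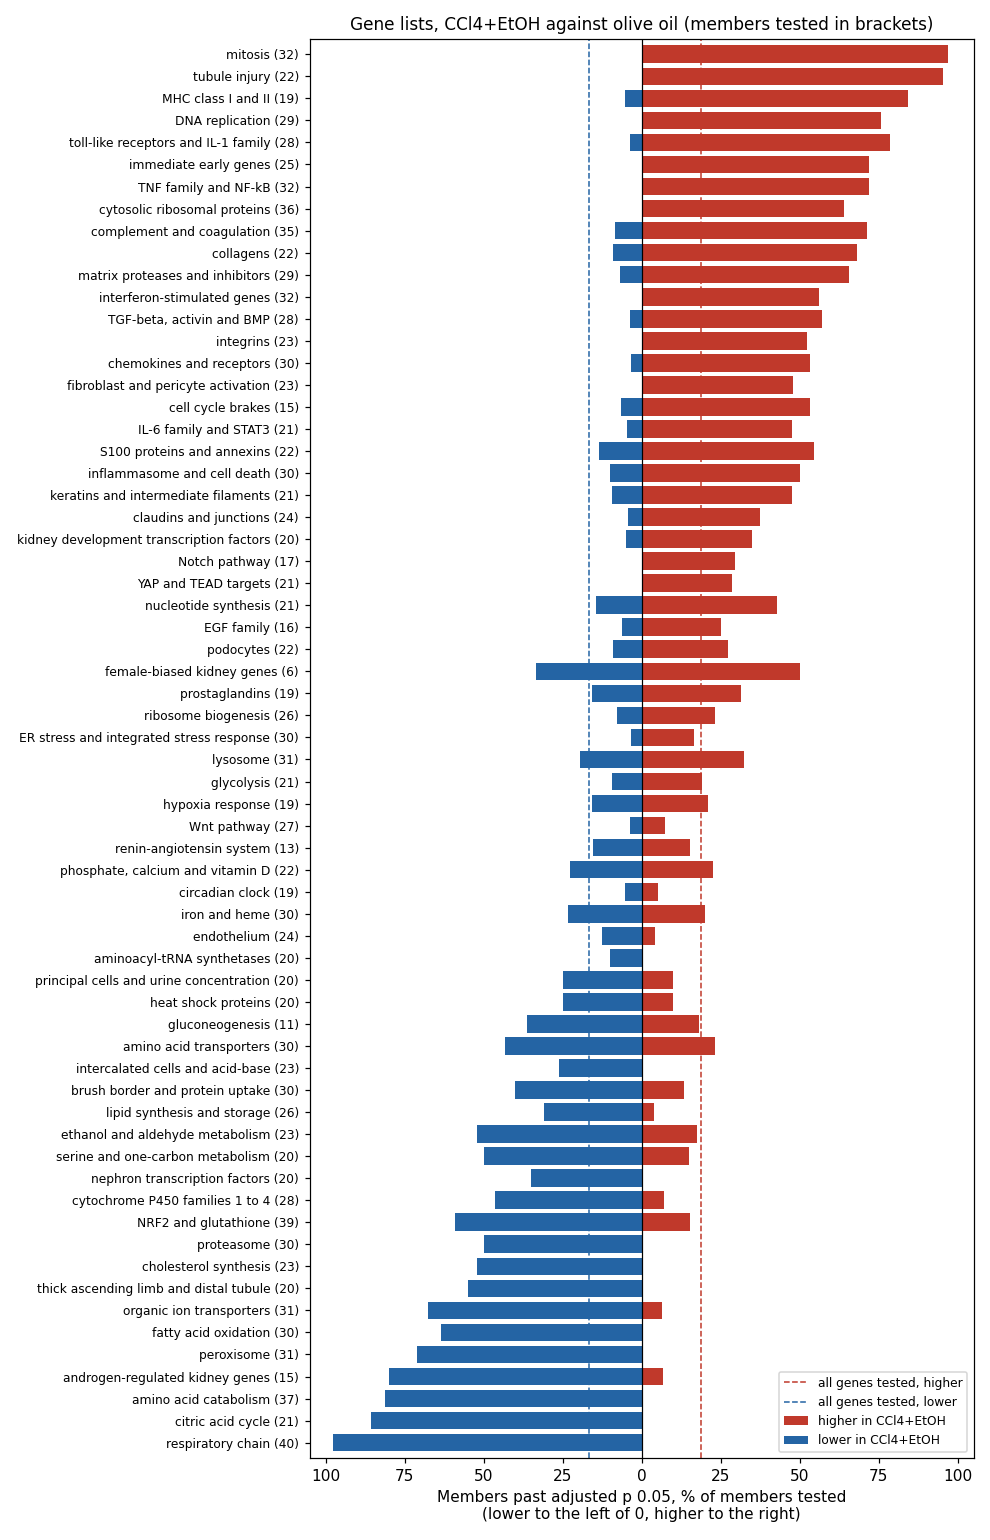
For each of 64 gene lists the bar gives the percent of members tested that rose (red, right of 0) and fell (blue, left of 0) in CCl4+EtOH against olive oil with an adjusted p under 0.05 in edgeR. Dashed lines mark 18.9% and 16.6%, the same over all genes tested, and mitosis and tubule injury reach farthest to the right, the respiratory chain and the citric acid cycle to the left.

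In each of the growth factor, matrix and adhesion lists more members rose than fell, although in some most members did not pass. In the TGF-beta, activin and BMP list 16 of 28 rose and 1 fell. Tgfb1, the ligand, had 34.3, 20.8 and 19.2 CPM in CCl4+EtOH kidneys and 12.3, 11.3 and 11.3 CPM in olive oil kidneys, a change of 1.09 ± 0.20 (adjusted p = 0.00115). The receptor Tgfbr1 rose by 0.66. In the EGF family 4 of 16 rose and 1 fell. Egf, made by the thick ascending limb and distal tubule, had 306, 415 and 1706 CPM in CCl4+EtOH kidneys, against 2483, 2669 and 2492 CPM in olive oil kidneys, a change of -1.66 ± 0.46 (SE, adjusted p = 0.0146). Replicate 3 lay closer to the olive oil libraries than replicates 1 and 2 did, and without replicate 2 Egf did not pass (adjusted p = 0.0635). Nor did Egf pass in a fit of only these 6 libraries (adjusted p = 0.1). Of 23 genes of fibroblast and pericyte activation 11 rose, and 7 did without CCl4+EtOH replicate 1 or 2 and 6 without olive oil replicate 2 or 3 or in a fit of only these 6 libraries. The growth factor Pdgfb and the pericyte proteoglycan Cspg4 rose by 1.32 and 0.94. Acta2, the smooth muscle actin of myofibroblasts, had 108, 50.4 and 47.6 CPM in CCl4+EtOH kidneys and 69.5, 62.3 and 33.9 CPM in olive oil kidneys, overlapping values (adjusted p = 0.496).

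Of 22 collagen genes 15 rose and 2 fell, median 0.86, and 8 rose in a fit of only these 6 libraries. Col12a1 and Col15a1, which link collagen fibrils and basement membranes, rose by 1.85 and 1.44, and Col4a4 of the glomerular basement membrane fell by 0.68 on the log2 scale. Col1a1, the main fibrillar chain, had 337, 161 and 121 CPM in CCl4+EtOH kidneys and 115, 69.5 and 31.9 CPM in olive oil kidneys (adjusted p = 0.035). The lowest treated and the highest olive oil library differed little, and the gene did not pass without CCl4+EtOH replicate 1, CCl4+EtOH replicate 2, olive oil replicate 2 or olive oil replicate 3 (adjusted p = 0.186, 0.0552, 0.0907 and 0.113). Col1a1 did not pass in a fit of only these 6 libraries either (adjusted p = 0.0848). Of 29 matrix proteases and inhibitors 19 rose and 2 fell. Mmp14, a membrane-bound collagenase, had 57.3, 58.7 and 32.0 CPM in CCl4+EtOH kidneys and 17.0, 14.002 and 12.5 CPM in olive oil kidneys, a change of 1.77 ± 0.23 (adjusted p = 0.000203). Adamts1 rose by 2.30. Among 23 integrins and partners 12 rose and none fell. Itga1, a collagen receptor, had 209, 151 and 149 CPM in CCl4+EtOH kidneys and 78.4, 69.1 and 74.4 CPM in olive oil kidneys, and Cd44, the hyaluronan receptor, had 115, 117 and 26.0 CPM in CCl4+EtOH kidneys and 4.99, 3.62 and 5.91 CPM in olive oil kidneys. Of 21 YAP and TEAD targets 6 rose and none fell (2 lower at an unadjusted p under 0.05, 2 in DESeq2 and 1 in limma-voom), with the receptor kinase Axl at 1.26 and Ankrd1 at 3.63.

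Inflammatory genes rose across receptors, transcription factors and ligands. In the toll-like receptor and IL-1 list 22 of 28 rose and 1 fell, and 14 rose without CCl4+EtOH replicate 2. Tlr2, a receptor for bacterial lipopeptides, had 29.0, 32.3 and 13.5 CPM in CCl4+EtOH kidneys, against 5.46, 3.45 and 4.71 CPM in olive oil kidneys, a change of 2.46 ± 0.38 (SE, adjusted p = 0.00063). Cd14, the coreceptor for endotoxin, had 62.3, 60.2 and 13.99 CPM in CCl4+EtOH kidneys and 8.04, 6.32 and 4.23 CPM in olive oil kidneys. In the TNF and NF-kB list 23 of 32 rose and none fell (1 gene lower at an unadjusted p under 0.05 and 1 in DESeq2), with the subunits Nfkb1 and Nfkb2 at 1.10 and 1.13 and the cofactor Nfkbiz at 2.37. Of 30 chemokines and receptors 16 rose and 1 fell, median 1.42. Ccl2, which draws monocytes, had 37.98, 53.6 and 19.3 CPM in CCl4+EtOH kidneys and 0.645, 1.15 and 2.17 CPM in olive oil kidneys, and Cxcl1, which draws neutrophils, had 42.9, 35.9 and 9.41 CPM in CCl4+EtOH kidneys and 1.06, 0.442 and 1.46 CPM in olive oil kidneys. In the IL-6 and STAT3 list 10 of 21 rose and 1 fell. Lif, a cytokine of that family, had 50.1, 21.1 and 3.97 CPM in CCl4+EtOH kidneys and 0.587, 0.751 and 0.65 CPM in olive oil kidneys, and the feedback inhibitor Socs3 rose by 3.19. The cell death list had 15 of 30 higher and 3 lower, and 5 lower without CCl4+EtOH replicate 3. Gsdmd, the pore of pyroptosis, rose by 1.47 and Bak1, a pore of apoptosis, by 0.84.

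Macrophage markers moved with these groups. Of 20 markers 18 rose, 2 did not pass and none fell. Their mean log2 CPM was 5.56, 5.72 and 5.06 in CCl4+EtOH kidneys and 3.97, 3.59 and 3.94 in olive oil kidneys. Mrc1, a scavenger receptor of resident macrophages, had 55.2, 62.7 and 43.5 CPM in CCl4+EtOH kidneys and 17.5, 11.6 and 15.2 CPM in olive oil kidneys. Their part in the rise of the receptors, chemokines and MHC genes was not tested. Cd14, Itgax and Ccr2, which are counted above, are themselves markers of such cells. Of 11 dendritic cell markers, Itgax among them, 2 rose, 9 did not pass and none fell, with a median log2 change of -0.30. Of 16 T and NK cell markers none passed in edgeR (2 higher at an unadjusted p under 0.05, 0 in DESeq2 and 1 in limma-voom), with mean log2 CPM of 0.58, 0.034 and 0.13 in CCl4+EtOH kidneys and 0.23, 0.19 and 0.16 in olive oil kidneys. Of 10 neutrophil markers none passed (0 at an unadjusted p under 0.05 and by the other tools). Of 10 adipocyte markers none passed either (0 at an unadjusted p under 0.05 and by the other tools), and their mean log2 CPM was 3.19, 3.49 and 5.94 in CCl4+EtOH kidneys and 4.41, 1.24 and 2.61 in olive oil kidneys, highest in CCl4+EtOH replicate 3.

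Antigen presentation, interferon and complement genes were higher. Of 19 MHC genes 16 rose and 1 fell, with B2m, the class I light chain, at 1.03 and H2-DMb1, a class II peptide exchanger, at 1.31. Among 32 interferon-stimulated genes 18 rose and none fell, and the list's mean log2 CPM was 4.55, 4.66 and 3.58 in CCl4+EtOH kidneys and 3.52, 3.504 and 3.69 in olive oil kidneys. Replicate 3 thus lay within the olive oil range on that mean. The number that rose was 11, 7 and 25 without CCl4+EtOH replicates 1, 2 and 3, 9 without olive oil replicate 2, and 8 in a fit of only these 6 libraries. Ddx58, a sensor of viral RNA, had 88.2, 88.5 and 51.1 CPM in CCl4+EtOH kidneys and 33.3, 36.9 and 41.3 CPM in olive oil kidneys. Of 35 complement and coagulation genes 25 rose and 3 fell, median 1.18. C4b had 98.3, 111 and 94.8 CPM in CCl4+EtOH kidneys and 34.7, 26.1 and 35.4 CPM in olive oil kidneys, a change of 1.66 ± 0.22 (adjusted p = 0.000266), and C6 of the membrane attack complex rose by 1.92. Proc, the anticoagulant protein C, had 71.0, 65.9 and 100.2 CPM in CCl4+EtOH kidneys and 184, 178 and 180.2 CPM in olive oil kidneys, a change of -1.19 ± 0.14 (adjusted p = 9.14e-05). Of 13 hepatocyte markers 1 rose and 2 fell.

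Mitosis and DNA replication genes rose together, and of all lists the mean of the mitosis list had the widest gap among the treated mice. In the mitosis list 31 of 32 rose, median 2.77, and in DNA replication 22 of 29 rose, median 0.99, and none fell in either. In a fit of only these 6 libraries 11 DNA replication genes rose, and without CCl4+EtOH replicate 3 in the fit of all groups 27 did. Mean log2 CPM of the mitosis list was 4.26, 2.97 and 1.26 in CCl4+EtOH kidneys and 0.79, 0.45 and 0.61 in olive oil kidneys. Cenpf, a kinetochore protein, had 27.4, 10.3 and 2.89 CPM in CCl4+EtOH kidneys and 0.587, 0.928 and 1.30 CPM in olive oil kidneys, a change of 3.84 ± 0.71 (adjusted p = 0.00158). Ccnb2, a mitotic cyclin, had 23.9, 7.55 and 2.20 CPM in CCl4+EtOH kidneys and 0.704, 0.353 and 0.921 CPM in olive oil kidneys. For both replicate 1 was the highest and replicate 3 the lowest, and replicate 3 stayed above the olive oil libraries. Chaf1b and Pola1 of DNA synthesis rose by 2.63 and 1.42. Brakes of the cycle rose as well, in 8 of 15 genes with 1 lower, and 5 rose without olive oil replicate 2. Cdkn1a (p21) had 36.1, 40.2 and 12.5 CPM in CCl4+EtOH kidneys and 10.03, 8.22 and 7.70 CPM in olive oil kidneys. In nucleotide synthesis 9 of 21 rose and 3 fell (4 rose in a fit of only these 6 libraries), with the reductase subunits Rrm1 and Rrm2 at 1.12 and 2.44, and the purine enzyme Paics fell by 0.49 on the log2 scale.

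Protein synthesis and turnover shifted by small amounts. Of 36 cytosolic ribosomal protein genes 23 rose and none fell, with a median of 0.25 and none beyond 2-fold. Rps16 had 89.5, 88.5 and 75.6 CPM in CCl4+EtOH kidneys and 61.5, 62.8 and 55.4 CPM in olive oil kidneys, a change of 0.50 ± 0.10 (adjusted p = 0.00169). The count was 13, 13, 15 and 12 without CCl4+EtOH replicate 1, CCl4+EtOH replicate 2, olive oil replicate 1 and olive oil replicate 3, and 7 in a fit of only these 6 libraries. Of 30 proteasome genes 15 fell and none rose, median -0.23, and 7 fell without CCl4+EtOH replicate 2 9 without olive oil replicate 3 or with upper-quartile scaling and 7 in a fit of only these 6 libraries. Psmb7, a catalytic subunit, had 97.1, 96.1 and 102 CPM in CCl4+EtOH kidneys and 127, 132 and 136 CPM in olive oil kidneys, and replicate 3 lay beside replicates 1 and 2. Of 31 lysosomal genes 10 rose and 6 fell, and Hexa, a subunit of hexosaminidase, rose by 0.87. In ER stress 5 of 30 rose and 1 fell, and 3, 3 and 9 rose without CCl4+EtOH replicates 1, 2 and 3, and 3 in a fit of only these 6 libraries.

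Antioxidant genes were lower. Of 39 NRF2 and glutathione genes 23 fell and 6 rose, median -0.46. The cytosolic superoxide dismutase Sod1 had 155, 135 and 188 CPM in CCl4+EtOH kidneys, against 334, 320.3 and 367 CPM in olive oil kidneys (log2 change -1.10 ± 0.13, SE, adjusted p = 0.000144). The mitochondrial Sod2 fell by 0.84 on the log2 scale. Gpx4, which reduces lipid peroxides, had 136, 135 and 168 CPM in CCl4+EtOH kidneys and 227, 223 and 220.1 CPM in olive oil kidneys. Every treated library lay below every olive oil library for Sod1 and Gpx4. The heme oxygenase Hmox1, had 48.6, 53.2 and 31.3 CPM in CCl4+EtOH kidneys and 42.9, 46.6 and 34.2 CPM in olive oil kidneys, overlapping values (adjusted p = 0.793). In heat shock proteins 5 of 20 fell and 2 rose, the small proteins Hspb1 and Hspb8 at 2.53 and 1.61, and 2 fell without CCl4+EtOH replicate 2 or olive oil replicate 2 and 3 without olive oil replicate 1 or 3 or in a fit of only these 6 libraries. In iron and heme handling 6 of 30 rose and 7 fell, and 13 fell without CCl4+EtOH replicate 3 and 4 in a fit of only these 6 libraries. Ferroportin (Slc40a1), the iron exporter, had 146, 149 and 108 CPM in CCl4+EtOH kidneys and 70.1, 74.2 and 71.7 CPM in olive oil kidneys. In the Wnt, Notch, circadian clock and hypoxia lists 2 of 27, 5 of 17, 1 of 19 and 4 of 19 genes rose and 1, 0, 1 and 3 fell. Of the Notch genes 1 was lower at an unadjusted p under 0.05 in edgeR, and 0 by the other tools. With 1 of the 6 libraries left out 1 to 7, 2 to 6, 1 to 2 and 2 to 5 rose, the highest Wnt, Notch and hypoxia counts without CCl4+EtOH replicate 3. Without that library the lead turned in the hypoxia list, to 5 higher and 7 lower, and 1 clock gene rose and 3 fell. In the fit of only these 6 libraries 2 Notch and 2 hypoxia genes rose. In the renin-angiotensin list 2 of 13 rose and 2 fell, and 4 fell without CCl4+EtOH replicate 3. Ace, the angiotensin-converting enzyme, had 178, 85.5 and 90.3 CPM in CCl4+EtOH kidneys and 337, 299 and 490.4 CPM in olive oil kidneys.

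How far CCl4+EtOH replicate 3 shared these changes was described on genes called without it, so that its values took no part in the choice. The 3 olive oil libraries did take part in the choice and also set the 0 point and the range. The values below are therefore not independent of the choice. The fit without replicate 3 tested 16398 genes. Of the 16105 genes of the main test, the only ones used here, it called 23% higher and 22.5% lower. The change in replicate 3 was set against the mean change of replicates 1 and 2 on the log2 scale, with 0 at the olive oil mean and 1 at their mean. Its median was 0.425 over 3699 higher and 0.389 over 3626 lower genes. Replicate 3 lay beyond the olive oil range in the same direction for 75.6% of the higher and 71.3% of the lower genes, where it lay above that range for 35.1% and below it for 32.3% of all genes. When replicate 1 or replicate 2 was held out instead, the medians ran from 1.15 to 1.29, with replicate 3 in the mean they were set against. The median differed between gene groups. It was 0.981 for the 13 proteasome genes called lower, 0.865 for 12 androgen-dependent genes, 0.78 for 11 lysosomal genes called higher, 0.709 for 19 macrophage markers and 0.676 for 24 ribosomal protein genes. It was 0.456 for 33 genes of amino acid catabolism and 0.449 for 21 injury genes. It was 0.298 for 40 respiratory chain genes, 0.253 for 20 brush border genes, 0.21 for 32 mitosis genes, 0.0621 for 25 interferon-stimulated genes, 0.0315 for 14 nephron transcription factors and -0.0106 for 18 intercalated cell genes. For the 7 red cell markers called lower it was -0.929, and 6 of them lay above the olive oil range in replicate 3, among them hemoglobin genes of which some share all their counts. In replicate 3 the proteasome and androgen-dependent genes thus lay nearly as far from olive oil as in the other treated mice. The intercalated cell and interferon-stimulated genes went both ways. Of the 25 interferon-stimulated genes called higher 11 lay above the olive oil range in replicate 3, 7 within it and 7 below it, and of the 18 intercalated cell genes called lower 4 lay below it, 8 within it and 6 above it. These medians are descriptions, and differences between groups were not tested.

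Single genes called in the fit without replicate 3 show both ends. Azgp1, Cbs, Csad, Acox3, Bdh1 and Htatip2 among lower genes, and Vps13c, Tap2, Hpgds, Unc93b1, Pogk and Lpp among higher genes, were those with the smallest p whose change in replicate 3 was at least 0.8 of that in the other treated mice. Unc93b1, which carries toll-like receptors to endosomes, had 58.0, 57.1 and 50.3 CPM in CCl4+EtOH kidneys and 28.2, 26.5 and 28.6 CPM in olive oil kidneys. Kl, Slc5a9, Slc34a1, Chchd10 and Cml1 among lower genes, and Cd24a, Cdh11, S100a11, Ifit2, Stap2 and Mal2 among higher genes, were among those with the smallest p where replicate 3 lay within the olive oil range. In the test with all libraries Slc5a9 passed but lost its call in 10 alternative settings, Slc34a1 in 6, Mal2 in 5 and Chchd10 in 3. Cd24a, S100a11, Ifit2 and Stap2 lost theirs in a fit of only these 6 libraries (adjusted p of 0.0548 to 0.0709). Slc34a1, the phosphate transporter of the proximal tubule, had 1544, 1916 and 5747 CPM in CCl4+EtOH kidneys and 5509.9, 7123 and 7056 CPM in olive oil kidneys, and did not pass without CCl4+EtOH replicate 1, CCl4+EtOH replicate 2, olive oil replicate 2 or olive oil replicate 3 (adjusted p of 0.0814 to 0.131). In a fit of only these 6 libraries its adjusted p was 0.158. Kl, which did not pass in the fit of all libraries (adjusted p = 0.0535), is Klotho, the coreceptor of the phosphate hormone FGF23, and had 329.7, 299 and 989 CPM in CCl4+EtOH kidneys and 920.1, 1080.4 and 1038 CPM in olive oil kidneys. Cd24a, a surface protein of progenitor-like tubule cells, had 406, 413 and 159 CPM in CCl4+EtOH kidneys and 168, 135 and 127 CPM in olive oil kidneys. Replicates 1 and 2 were far from the olive oil libraries in all 3 of these genes.

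**Figure D4:**
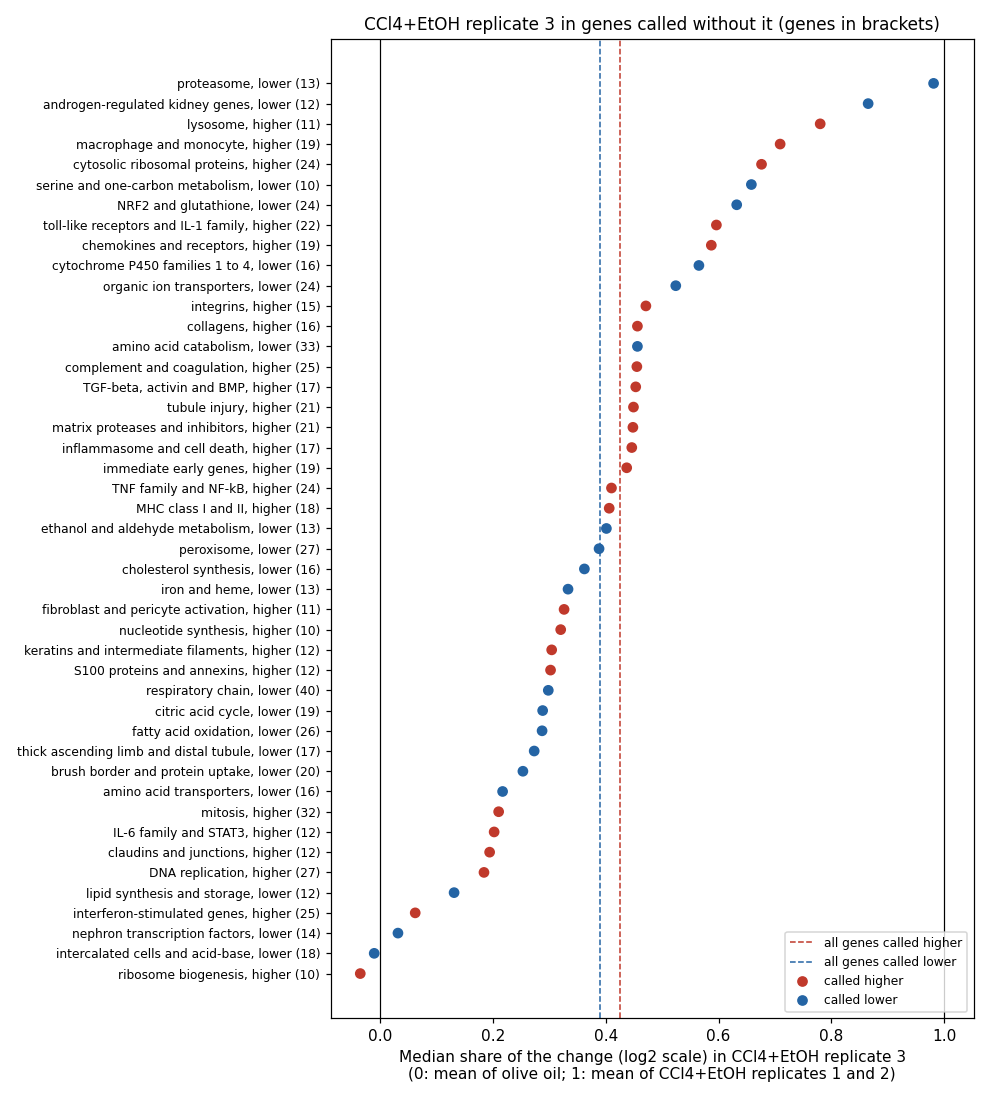
Each point is a gene list with at least 10 members called in the fit without CCl4+EtOH replicate 3, placed by the median share of the change that replicate 3 showed (0 is the mean of olive oil, 1 the mean of CCl4+EtOH replicates 1 and 2). Red lists were called higher and blue ones lower, and they run from 0.981 for proteasome genes to -0.0353 for genes of ribosome biogenesis, around dashed medians of 0.425 and 0.389.

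Motifs in promoters were counted on both strands of the 300-base windows, for the 12427 genes tested with a promoter in the RefSeq table. The AP-1 motif TGANTCA was in 6.69% of promoters of genes that rose, 5.32% of those that fell and 5.44% of all, and in 9.33% of genes that rose over 2-fold. The interferon element, GAAA and GAAA with any 2 bases between them, was in 4.53% of genes that rose, 2.45% that fell and 3.15% of all, and in 14 of 25 promoters (56.0%) of the interferon-stimulated list. Among genes changed over 4-fold it was in 14 of 309 promoters of higher (4.53%) and 5 of 94 of lower genes (5.32%). The NF-kB motif, GGGA and TTTCC with any base between them, was in 0.762% of genes that rose, 0.33% that fell and 0.386% of all. The HNF4 motif CAAAGTCCA was in 0.508% of genes that rose, 0.942% that fell and 0.515% of all. The HNF1 motif, GTTAAT and ATTAA with any base between them, shown above in Gc, was in 0.0644% of all promoters. It was in 2 of 2362 promoters of genes that rose (0.0847%) and in 4 of 2124 of genes that fell (0.188%). Other motifs were counted in the same genes and in the cell cycle lists. The E2F motif TTTNGCGC was in 2.41% of genes that rose, 2.02% that fell and 2.21% of all. In the lists it was in 8 of 25 promoters of DNA replication genes (32.0%) and in 1 of 29 of mitosis genes (3.45%). The CCAAT box CCAATCA was in 9.31% of genes that rose, 10.3% that fell and 10% of all. In the lists it was in 10 of 25 promoters of DNA replication genes (40.0%) and in 12 of 29 of mitosis genes (41.4%). Matches of different motifs may overlap and were counted for each motif on its own.

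Both single treatments were set against the combined one in the same fit. In CCl4+EtOH against CCl4 3007 genes rose and 2603 fell, 18.7% and 16.2% of those tested, and in CCl4+EtOH against EtOH 2913 rose and 2601 fell, 18.1% and 16.2%. These comparisons share the CCl4+EtOH libraries with the one above, so their values are given side by side and likeness between them is no result. Havcr1 was 7.02 ± 0.81 on the log2 scale against CCl4 and 7.90 ± 0.85 against EtOH (adjusted p = 0.000147 and 0.000131), with group means of 1086 CPM in CCl4+EtOH, 4.56 CPM in EtOH and 8.46 CPM in CCl4 kidneys. In the mitosis list all 32 genes tested rose in both. Interferon-stimulated genes rose in 25 of 32 with 1 lower against CCl4, and in 26 with none lower against EtOH. The respiratory chain list fell in 38 and 39 of 40.

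For some genes EtOH kidneys lay between CCl4+EtOH and olive oil kidneys. Gc averaged 486 ± 168 CPM in CCl4+EtOH (SD, n = 3), 148 ± 28.6 CPM in EtOH (n = 4), 48.4 ± 14.3 CPM in CCl4 (n = 4) and 34.5 ± 4.80 CPM in olive oil kidneys (n = 3). The change of Gc against EtOH was 1.71 ± 0.26 (adjusted p = 0.000558). Kap averaged 3370.5 ± 1454 CPM in CCl4+EtOH, 10890.0 ± 1798 CPM in EtOH, 25519 ± 5128 CPM in CCl4 and 27613 ± 2981 CPM in olive oil kidneys. Kap fell by 1.69 on the log2 scale against EtOH and by 2.92 against CCl4. Idi1 of sterol synthesis averaged 22.6 CPM in CCl4+EtOH and 32.0 CPM in EtOH kidneys, a difference that did not pass (adjusted p = 0.262). Ribosomal protein genes rose in 18 of 36 against CCl4 and in 9 against EtOH, and androgen-dependent genes fell in 11 of 15 and in 8. In CCl4+EtOH against EtOH all 12 adrenal gland markers fell, where EtOH replicates 1 to 3 held those transcripts, and their part in other differences against EtOH was not tested. Without these 3 libraries in the fit CCl4+EtOH against olive oil gave 2731 higher and 2444 lower genes.

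**Figure D5:**
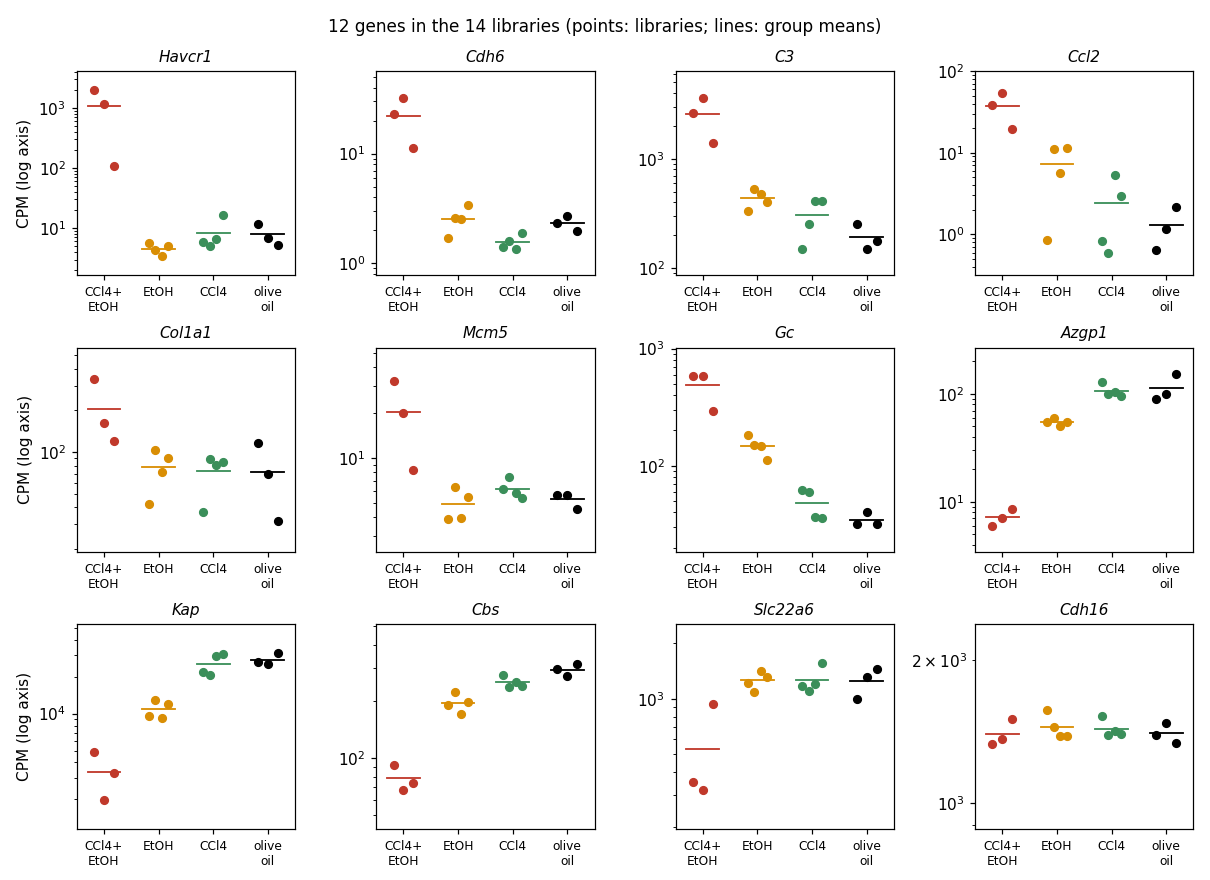
Each panel gives the CPM (log axis) of 1 gene in every library as points, with group means as lines, for CCl4+EtOH (3 libraries), EtOH (4), CCl4 (4) and olive oil (3). The CCl4+EtOH points of Havcr1, Cdh6, C3, Ccl2, Mcm5 and Gc lie above those of all other groups. Those of Azgp1, Kap, Cbs and Slc22a6 lie below. The lowest CCl4+EtOH point of Col1a1 lies just above the highest olive oil library, and Cdh16 overlaps.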

How the data were processed

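The table holds read counts per gene, deposited by the submitters without normalization. Per the submitters' processing notes, reads were aligned with GSNAP to mm9. Which tool counted them, on which annotation and whether by strand is not given in the sources used here. Per the labels' protocols, flash-frozen kidney gave RNA for a standard Illumina library. Of 15 labelled samples 14 have a column, and the remaining olive oil sample was not analysed here. Of 23893 rows, 27 bear dates in place of gene names, hold 0.168% to 0.209% of counts, and were dropped. Groups follow the labels, with replicates numbered in accession order. The p-values measure the spread between these single mice.

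Counts of all 14 libraries were fitted in 4 groups with edgeR 4.0.16 (robust quasi-likelihood, TMM factors, filterByExpr) in R 4.3.3, and p-values were adjusted by Benjamini-Hochberg over 16105 genes. A fold change is on the log2 scale with its SE. Counts are not corrected for length, so levels were not compared between genes. At this depth 3 counts in a group correspond to 0.041 CPM in CCl4+EtOH and 0.0516 CPM in olive oil libraries, for counting error alone. DESeq2 1.42.0, limma-voom (limma 3.58.1), other scalings and filters, and fits without single libraries were alternatives. Leaving EtOH replicates 1 to 3 out of the fit and rescaling the gene lists were added after seeing the data.

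The members, gene lists and tests were chosen with earlier results of these data known. Genes were named by rule: among called genes without overlap and with at least 5 CPM, the 12 higher and 12 lower with the smallest p and the 8 higher and 8 lower with the largest difference in mean CPM, then the 4 or fewer of every list that had the lowest p, and the 6 higher and 6 lower at each end of the replicate 3 comparison. Acta2, Adh1, Cdh16, Col1a1, Cubn, Gpx3, Hmox1, Hnf4a, Lrp2, Mcm5, Nphs1, Timd2 and Umod fall outside the rule and were chosen after their values were seen. Predicted genes entered the counts without a name. A few genes that the rule reaches are not reported here.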

Additional observations from a re-analysis of the deposited data

Results flagged for a closer look

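In groups of 4 libraries, a sample was looked for whose gap to its nearest neighbour was too large a part of the group's range by Dixon's 95% critical value, for 40 of the named genes in the 80 groups that the 4 CCl4 and the 4 EtOH libraries make of them. Chance flags about 1 in 20 such groups, and 3 were found, all in the CCl4 group. Havcr1 reached 16.3 CPM in 1 CCl4 library, Myo9a 62.5 CPM and Pogk 38.9 CPM. These libraries are the reference of CCl4+EtOH against CCl4 and take no part in the values against olive oil beyond the shared spread. The rows that bear dates in place of gene names, which entered no comparison, held 0.209%, 0.193% and 0.184% of counts in CCl4+EtOH libraries (mean 0.195%) and 0.172%, 0.170% and 0.176% in olive oil libraries (mean 0.173%).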

How the results depend on the processing

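No paired analysis was possible because the numbers in the labels name single mice and no number occurs in both groups, so no replicate block was fitted. The count of 5706 called genes against olive oil was 3276 in a fit of only these 6 libraries and ranged from 3904 to 7417 with 1 library left out. It lay between 5175 and 7380 under the other scalings, filters, tools and groupings, and every gene called both there and in the main test kept its direction. Upper-quartile scaling moved the median of all genes by 0.0453 on the log2 scale and gave 59.4% of calls higher, against 53.2%. Of 163 named genes that were called, 144 kept the call in every setting, and no named gene that was called changed its sign. In the fit of only these 6 libraries 16 of the named genes lost their call. Against CCl4 the count ranged from 3480 to 7396 with 1 library left out. Against EtOH it was 3390 with only the 2 groups and ranged from 3195 to 7417. The number of lists with more higher than lower genes, 36 of 64, ranged from 33 to 39. The glycolysis, tRNA synthetase, principal cell, iron, female-biased and hypoxia lists turned their lead under at least 1 alternative. For replicate 3 the percent beyond the olive oil range was 78.0 (higher) and 68.1 (lower) with upper-quartile scaling, 78.1 (higher) with genes from only the 2 groups, and 78.6 to 81.5 (higher) and 73.5 to 78.2 (lower) with 1 olive oil library left out. Among genes that changed over 2-fold, promoters with the AP-1 motif were 9.33% of higher and 6.4% of lower genes, with the interferon element 5.85% and 3.4%, and of lower genes 0.8% held the E2F motif, 8.8% the CCAAT box, 1.6% the HNF4 and 0.0% the HNF1 motif. The cause of these moves was not tested. Genes under about 1 CPM and gene copies with shared reads are the least certain.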
